A study of Rattus norvegicus with 18 samples.

Results

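Vesicles grown without serum were compared with vesicles grown with serum. Both were made from rat extraembryonic endoderm precursor cells, which the labels call rat XENP or pXEN. The comparison took the 3 libraries titled as serum-free vesicles and the 3 titled as serum vesicles, which are 6 of the study's 18, and every gene in their count tables. The other 12 libraries, 3 each of normal cells and of 3 kinds of vacuolated cells, entered the fit only to estimate the spread between replicates, and normal cells are given in places as a reference level.

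All cells came from WKY rat blastocysts and were labelled female. The titles of both vesicle groups name CHIR, short for CHIR99021, an inhibitor of the kinase GSK3. The serum vesicles stood at passages 32, 35 and 49 and the serum-free vesicles at passages 32, 35 and 42. The growth protocol describes vesicles only in N2B27, a defined medium without serum, with 3 µM of the inhibitor, murine LIF at 10 ng/ml and no feeder cells. It does not say whether the serum vesicles had the same medium, LIF and dose, so serum and these other parts of the culture cannot be told apart in this comparison. The labels state that the samples were prepared independently, and do not say whether they were separate derivations, so each p below measures the spread between these samples. What a vesicle is, and how many cells it holds, is not described in the labels.

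Extraembryonic endoderm is the lineage that lines the blastocyst cavity and forms the yolk sac. Its visceral branch takes up and secretes nutrients, lipoproteins and carrier proteins, and its parietal branch lays down a thick basement membrane. Serum brings lipoproteins, steroid hormones, retinoids, metals and growth factors to cells in culture. Cells short of sterol switch on the genes of cholesterol synthesis and desaturation through SREBP, a factor that sterol holds in the endoplasmic reticulum. Glucocorticoid hormones act through a nuclear receptor on a small set of genes shared by many tissues, and the tumour suppressor p53 on another that slows division and repairs DNA. Standard defined supplements of the N2 and B27 kind supply insulin, transferrin, selenium and steroids, and the formulation used here is not given in the labels.

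The vesicle libraries held 4050722 to 11079824 counts on the sequenced strand. A pair of genes with clone-style names, whose identity was not established here, took 51.0 to 61.1% of them and left 1919117 to 4501024 for all other genes. Genes with an Mt- symbol, which the mitochondrial genome encodes, took 7.91 to 9.31% of those in serum and 7.11 to 9.43% in serum-free vesicles, a difference of means of -0.07 percentage points (exact two-sided permutation test, p = 1, where 3 against 3 cannot go below 0.1). Serum replicate 3 had the fewest counts and lay furthest from the other vesicles on the first principal component of the 6 libraries. That component held 46.7% of their variance and had the 3 serum libraries on one side and the 3 serum-free libraries on the other. Against the label female, the symbols Usp9y, Kdm5d, Eif2s3y and Uba1y, whose genes lie on the Y chromosome, had counts in all 18 libraries. Reads of their X-linked near-copies could be counted there, and that was not tested.

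Of 11503 genes with enough counts to test, 2806 (24.4%) differed between the vesicle groups at an adjusted p below 0.05 (edgeR's quasi-likelihood test with Benjamini-Hochberg adjustment over all tested genes). Of these, 1482 (12.9%) were higher and 1324 (11.5%) were lower without serum. Over 2-fold, 913 genes differed (7.94%), more often as decreases, with 292 genes higher (2.54%) and 621 lower (5.4%). The 3 libraries of one group all lay above the 3 of the other for 3755 genes (32.6%). The median log2 fold change of all tested genes was 0.02. The number of called genes depended on single libraries, falling to 1725 without serum replicate 3 and rising to 3004 without serum replicate 2. With the 6 vesicle libraries alone, which leave 4 residual degrees of freedom in place of 12, it was 1223. Throughout, a level is in CPM, a library's counts scaled to a common total with TMM factors, given for replicates 1, 2 and 3 in that order or as mean ± SD with n = 3. A log2 fold change is serum-free minus serum, with its standard error.

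The genes of 46 lists, written from background knowledge, were counted against that background of 12.9% higher and 11.5% lower. The background depended on level and gene length. Over 5 classes of level, the share higher ran from 4.82% in the lowest to 28.7% in the highest. The share lower was 8.3 to 15% over the same classes. Over 5 classes of length, the share lower ran from 5.03% in the shortest to 22.7% in the longest, and the share higher from 19.2% to 7.96%. The lists were not compared with genes of like level or length. Among lists with at least 10 tested members, cholesterol synthesis (12 of 25), endoplasmic reticulum chaperones (9 of 22), cholesterol efflux (4 of 10) and BMP targets (5 of 13) held the largest shares of higher genes. Glucocorticoid-responsive genes (8 of 14), p53 targets (9 of 20) and targets of the oxidative stress factor NRF2 (9 of 23) held the largest shares of lower genes. The 13 mitochondrially encoded genes gave no call in either direction by edgeR or by DESeq2, with 1 higher at an unadjusted p under 0.05, and their median log2 fold change was 0.10. Calls did appear among them with no low-count filter (3 higher and 1 lower), without serum replicate 2 (1 higher) and without serum-free replicate 1 (2 higher). With the replicate number as a block in the 6 vesicle libraries alone, 1 was lower. Every other list described below as having 0 members in one direction by edgeR also had 0 there by DESeq2, apart from the ribosomal proteins (1 lower). At an unadjusted p under 0.05 such lists had 0 to 2 members in that direction.

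**Figure D1:**
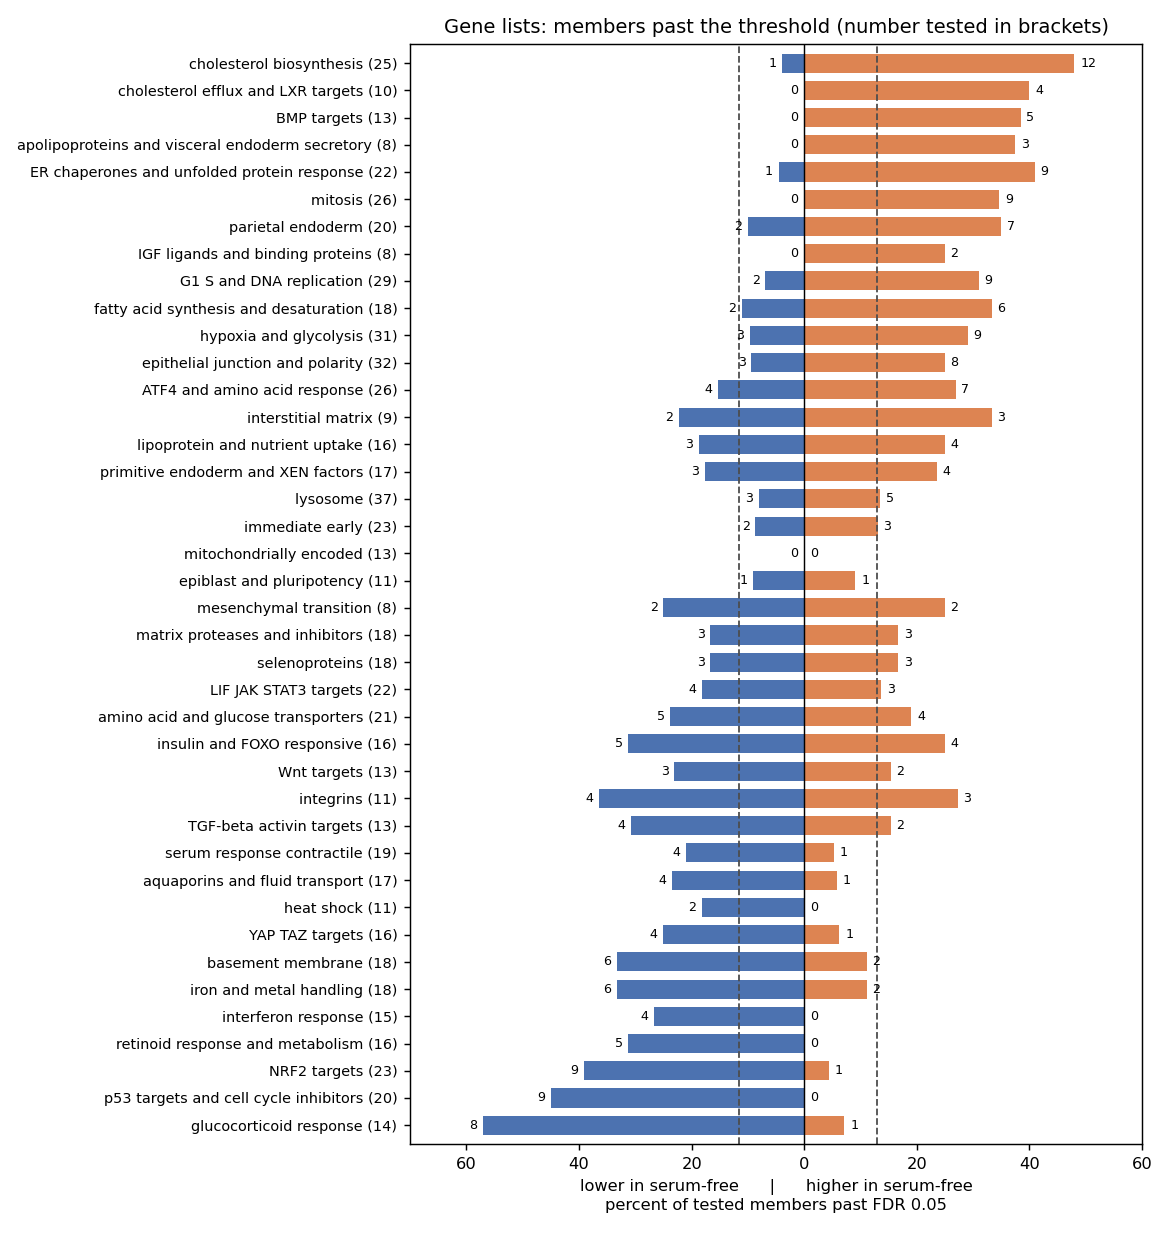
Share of the tested members of each gene list that were higher (right, orange) or lower (left, blue) in serum-free than in serum vesicles at an adjusted p below 0.05, with the number of such members beside each bar and the number tested in brackets. Dashed lines mark the shares over all tested genes, 12.9% higher and 11.5% lower; cholesterol biosynthesis had 12 of 25 members higher and the glucocorticoid response had 8 of 14 lower.

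Markers of the lineage were examined first. Levels of the endoderm factors Gata4, Gata6, Sox7 and Foxa2 and of the receptor Pdgfra overlapped between the groups and did not pass the test. Gata4 read 146, 181 and 138 CPM with serum and 177, 234 and 148 without. Sox17 read 272, 366 and 254 with serum and 385, 357 and 440 without (log2 fold change 0.40 ± 0.16, adjusted p = 0.0612), and it passed only with no filter on low counts (adjusted p = 0.0107) and without serum replicate 2 (adjusted p = 0.01). Of 17 tested factors of primitive endoderm, 4 were higher (Cubn, Hnf4a, Dab2 and Fgf10) and 3 lower (Fgfr2, Foxq1 and Gata2). Without serum replicate 3, 2 were higher, and without serum-free replicate 2, 1 was lower. Hnf4a, which drives the visceral programme, read 44.9, 43.8 and 34.1 CPM with serum and 75.9, 64.3 and 51.9 without (1.55-fold, adjusted p = 0.0124), and it did not pass without serum replicate 3 (0.068), without serum-free replicate 1 (0.0564) or with the 6 vesicle libraries alone (0.053). Pou5f1, the pluripotency factor, lay between 0 and 1.63 CPM in all 6 vesicle libraries, against 118 ± 15.7 in normal cells.

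Parietal endoderm genes were more often higher than lower without serum, 7 against 2 of 20 tested, with a median log2 fold change of 0.22. Sparc, a matrix protein that parietal endoderm secretes in bulk, read 530.0, 641 and 524 CPM with serum and 986, 946 and 1044 without, a 1.76-fold rise (0.81 ± 0.12, adjusted p = 3.78e-05) with no overlap. Vim, the intermediate filament of parietal and mesenchymal cells, read 4.26, 5.01 and 3.23 with serum and 12.1, 19.2 and 27 without, a 4.61-fold rise that still left it below the 108 ± 13.6 of normal cells. Pth1r, the receptor for parathyroid hormone-related protein that drives parietal differentiation, rose 1.42-fold (adjusted p = 0.00674, but 0.0606 with the 6 vesicle libraries alone). The laminin chain Lama1 did not pass (0.01 ± 0.20). Thbd, a thrombin receptor on parietal cells, passed narrowly (1.32-fold, adjusted p = 0.0456) and lost its call without serum replicate 1 or 3 or serum-free replicate 2 or 3. The count of higher parietal genes was 4 without serum replicate 3 and 2 with the 6 vesicle libraries alone.

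Visceral endoderm genes showed a library of their own. Of 8 tested secretory genes of this branch, Cubn, Tf and Hnf4a were higher and none was lower by edgeR. With no filter on low counts 10 of the list were higher, and 1 was lower without serum-free replicate 2. Cubn, the receptor that visceral endoderm uses to take up vitamin B12 and lipoproteins with its partner Amn, read 15.5, 5.01 and 4.84 CPM with serum and 29.6, 42.0 and 26.7 without, a 3.78-fold rise (1.92 ± 0.37, adjusted p = 0.00216). Amn itself fell 3.47-fold, from 11.7, 5.84 and 8.30 to 1.69, 3.64 and 1.86 (adjusted p = 6.84e-05). Dab2, an adaptor for the same uptake, rose 2.98-fold, but its libraries overlapped and its call was lost without serum replicate 2 (adjusted p = 0.104), serum replicate 3 (0.128) or serum-free replicate 2 (0.176).

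That replicate stood apart. Apoa1, the main protein of high-density lipoprotein, read 42.0 CPM in serum-free replicate 2 and 0 to 1.22 in the other 5 vesicle libraries. Afp, the fetal serum protein of visceral endoderm, read 30.6 there and 0.233 to 0.941 elsewhere. Apoa1, Apoa4, Apoc2, Afp, Fga and Fgb, chosen after their values were seen, together read 137 CPM in serum-free replicate 2, 7.91 in serum replicate 1 and at most 2.82 in the other 4. Albumin had 0 counts in both groups, which allows up to 0.135 CPM over the serum-free and 0.165 over the serum libraries. In bulk libraries, more cells of a type and more RNA per cell cannot be told apart. The cause of this replicate's readings was not tested.

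Markers of other cell types were read in the same libraries. Of 12 fibroblast and feeder genes, 5 were at 0 in all 6 libraries and only Col1a1, Col3a1 and Pdgfra were tested. Col1a1, the main collagen of fibroblasts, read 1.98, 10.3 and 4.84 CPM with serum and 1.69, 0.971 and 0.582 without, and did not pass (adjusted p = 0.111). Col3a1, another fibrillar collagen, fell from 2.09 ± 1.62 to 0.360 ± 0.231 (adjusted p = 0.0294), but not without serum replicate 2 (0.232), serum-free replicate 1 (0.054) or serum-free replicate 2 (0.12). Ptprc, the pan-leukocyte antigen, was at 0 throughout, and the macrophage receptor Csf1r had 23 counts with serum and 2 without, a ratio of 14.1 (95% interval 3.47 to 123, adjusted p = 0.0122, but 0.143 without serum replicate 2 and 0.0661 without serum-free replicate 3). The macrophage antigen Cd68 went the other way, at 0.304, 0.974 and 0.231 CPM with serum and 2.64, 5.71 and 1.51 without (5.96-fold higher, adjusted p = 0.00317). Neither had enough counts to be tested with the 6 vesicle libraries alone. The blood and immune markers summed to 1.98 to 3.46 CPM with serum and 1.75 to 6.19 without. Of the neural genes Dcx alone passed, falling from 24.6 ± 6.41 to 6.40 ± 3.61 CPM, while Neurod1 and Gfap were at 0. Summed over the list, neural markers read 33.0 to 47.3 CPM with serum and 18.2 to 49.96 without, and trophoblast markers 22.1 to 33.8 and 19.6 to 28.4, nearly all from Cdx2. The part of these genes in the results below was not tested.

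Genes at low levels (mean log2 CPM below 3) or with overlapping groups were set aside, which left 1118 higher and 679 lower genes, and the 12 with the largest change in each direction are described here. Each of the 24 kept its call in the same direction when any 1 of the 6 libraries was left out. They were chosen with all 6 libraries in view, so this is not an independent check. With the replicate number as a block in the 6 vesicle libraries alone, 23 of the 24 were called, and Akr1c14 was not.

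Ceacam1, a cell adhesion molecule of epithelia, showed the largest rise. It read 5.63, 3.76 and 1.38 CPM with serum and 24.7, 50.3 and 46.6 without, a 10.8-fold difference (3.43 ± 0.34, adjusted p = 1.33e-06). Every serum-free library lay well above the highest serum library. Gjb2, the gap junction protein connexin 26, read 22.4, 22.7 and 21.4 with serum and 83.0, 100.2 and 119 without (4.55-fold, adjusted p = 5.37e-08), and was near 0 in normal cells (0.298 ± 0.128). Pgm5, a member of the phosphoglucomutase family found at adherens junctions, rose 5.51-fold from 7.98 ± 2.29 to 43.3 ± 1.79.

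Secreted and signalling molecules were also among the largest rises. Igf1, the insulin-like growth factor, read 22.4, 17.1 and 12 CPM with serum and 64.0, 92.4 and 71.6 without (4.38-fold, adjusted p = 0.000261). Id3, an inhibitor of basic helix-loop-helix factors and a direct BMP target, read 9.74, 6.96 and 3.23 with serum and 27.7, 40.7 and 34.0 without (4.96-fold). The phospholipase A2 receptor Pla2r1 rose 6.27-fold, from 5.69 ± 0.916 to 35.8 ± 15.8.

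Metabolic genes filled most of the rest. Scd, the desaturase that makes oleate from stearate, read 13.7, 18.4 and 7.38 CPM with serum and 89.4, 72.6 and 47.8 without (5.13-fold, adjusted p = 3.32e-06), the serum-free level being nearer to the 114 ± 2.32 of normal cells. Papss2, which makes the sulfate donor for glycosaminoglycans, rose 4.37-fold, and Slc26a10, of the anion exchanger family, 5.31-fold. Akr1c14, a steroid dehydrogenase, rose 5.37-fold with a wide spread, at 41.2 CPM in serum-free replicate 1 and 156 and 171 in replicates 2 and 3. The linker histone gene Hist1h1a rose 7.02-fold, from 19.1 ± 3.40 to 135 ± 47.3, and Vim has been given above.

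**Figure D2:**
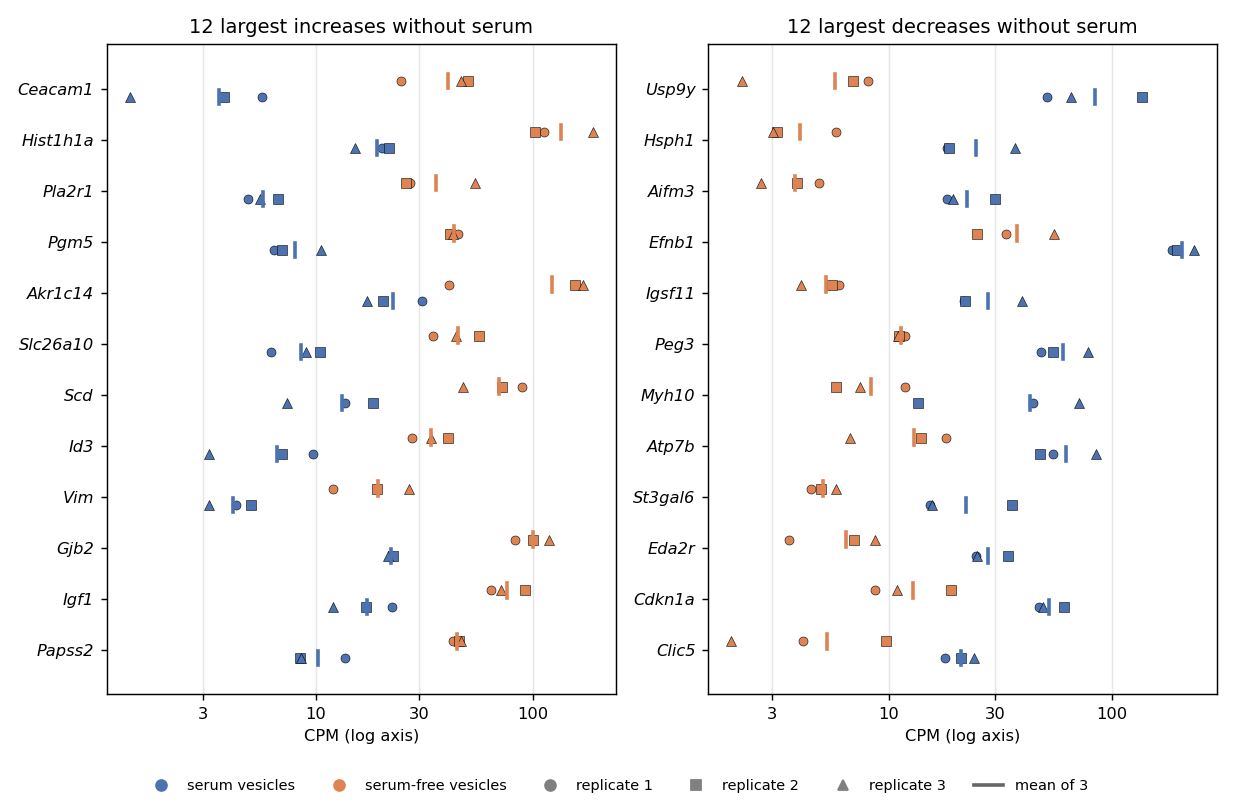
Level of the 12 genes with the largest rise (left) and the 12 with the largest fall (right) in serum-free vesicles, in CPM on a log axis. Each symbol is 1 library, with the shape giving the replicate and the bar the mean of 3; the 3 serum and the 3 serum-free libraries do not overlap for any of the 24, as the rule that chose them required.

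Usp9y showed the largest fall. It read 51.1, 136 and 65.2 CPM with serum and 8.10, 6.92 and 2.21 without, a 15.3-fold difference (-3.93 ± 0.43, adjusted p = 3.95e-05), against 209 ± 29.8 in normal cells. It encodes a deubiquitinase of the Y chromosome, and its X-linked copy Usp9x fell 1.67-fold, from 510.3 ± 50.4 to 305 ± 42.3 CPM. No other Y-linked gene that was tested passed as lower. Kdm5d read 29.2 ± 3.10 with serum and 36.8 ± 3.17 without (adjusted p = 0.176), and Eif2s3y rose 1.45-fold (adjusted p = 0.0205). Uba1y read 2.85 ± 1.52 and 0.652 ± 0.565 (adjusted p = 0.314). These genes and Usp9x were looked up after the fall of Usp9y was seen, and reads could have been split between the X and Y copies.

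Stress and growth arrest genes stood among the falls. Hsph1, a large heat shock chaperone, read 18.3, 18.6 and 36.9 CPM with serum and 5.84, 3.16 and 3.03 without (6.26-fold lower, adjusted p = 7.55e-06). Cdkn1a, the cyclin-dependent kinase inhibitor p21, read 47.0, 60.7 and 49.1 with serum and 8.66, 18.9 and 10.9 without (4.002-fold lower, adjusted p = 3.32e-06). Eda2r, a death-domain receptor and p53 target, fell 4.19-fold from 27.9 ± 5.46 to 6.45 ± 2.63. Peg3, an imprinted zinc finger gene expressed from the paternal allele, read 48.1, 54.1 and 78.1 with serum and 11.9, 11.2 and 11.1 without (5.26-fold lower), with serum-free libraries that hardly differed from each other.

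Surface and cytoskeletal genes made up most of the remaining falls. Efnb1, a membrane-bound ligand of Eph receptors, read 186, 195 and 233 CPM with serum and 33.5, 24.9 and 54.7 without (5.40-fold lower, adjusted p = 2.27e-07). Igsf11, an immunoglobulin-type adhesion molecule, fell 5.29-fold and Clic5, a chloride channel protein that links actin to the membrane, 3.94-fold. Myh10, the heavy chain of nonmuscle myosin IIB, fell 5.15-fold, but serum replicate 2 (13.5 CPM) lay close to serum-free replicate 1 (11.9). Atp7b, the copper exporter of hepatocytes, fell 4.88-fold from 62.2 ± 19.8 to 12.9 ± 5.73. Aifm3 and the sialyltransferase St3gal6 fell 6.02-fold and 4.35-fold.

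Part of the cholesterol synthesis list rose in the serum-free vesicles. Of the 25 on the list, all of which were tested, 12 were higher, 1 was lower and 12 did not pass, with a median log2 fold change of 0.40 against 0.02 over all genes. Leaving out 1 library in turn left 9 to 13 of them higher, and the 6 vesicle libraries alone left 5. The upstream sequence of 3 of these genes is shown here because all 3 rose and each holds the letters CCAAT, the box of NF-Y, a partner of SREBP at many sterol genes. The sequences are the 150 bases before the gene start in RefSeq (build GRCr8), on the gene's own strand, with CCAAT on either strand in capitals.
Fdps (chr2:176804817-176804966, minus strand): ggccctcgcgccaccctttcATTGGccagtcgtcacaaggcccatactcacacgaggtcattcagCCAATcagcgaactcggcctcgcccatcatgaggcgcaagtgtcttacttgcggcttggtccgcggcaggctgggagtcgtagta
Hmgcs1 (chr2:53382154-53382303, plus strand): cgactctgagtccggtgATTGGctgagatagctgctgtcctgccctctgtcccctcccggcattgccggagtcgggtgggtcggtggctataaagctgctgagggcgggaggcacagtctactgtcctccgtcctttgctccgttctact
Idi1 (chr17:66547525-66547674, minus strand): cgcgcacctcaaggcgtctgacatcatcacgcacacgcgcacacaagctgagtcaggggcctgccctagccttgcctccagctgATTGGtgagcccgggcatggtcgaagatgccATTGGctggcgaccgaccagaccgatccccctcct

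Of the list, 18 genes had an upstream sequence in the RefSeq table, and 15 of them held CCAAT within 250 bases before the start, against 34.3% of all 27457 promoters. Among the 9 matched genes that rose it was found in 6. A sterol element searched as TCACNCCAC on both strands was in none of the 18, and in 0.976% of all promoters. The 11 motifs searched over 5 lists were looked at after the values were known, and a match is a description of the letters only.

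The enzymes themselves separated cleanly. Fdps, which makes farnesyl diphosphate, read 164, 149 and 145 CPM with serum and 264, 273 and 276 without, a 1.77-fold rise (0.83 ± 0.10, adjusted p = 6.41e-06). Idi1, the isomerase that precedes Fdps, rose 1.63-fold from 49.0 ± 3.74 to 80.0 ± 6.36, and Hmgcs1, the synthase at the head of the pathway, rose 1.40-fold from 77.6 ± 9.19 to 109 ± 13.6 but did not pass with the 6 vesicle libraries alone (adjusted p = 0.0791). Insig1, the SREBP target that holds the factor back, rose 1.52-fold. The exception was Ggps1, which draws farnesyl diphosphate away to make geranylgeranyl groups and fell 1.79-fold, from 10.8 ± 0.914 to 6.07 ± 0.133. It did not pass with counts thinned so that libraries had equal totals outside the 2 most abundant genes (adjusted p = 0.0614).

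Desaturases had larger fold changes than the sterol enzymes named above. Fads2, the delta-6 desaturase of polyunsaturated fatty acids, read 15.4, 12.4 and 13.4 CPM with serum and 46.1, 40.8 and 30.6 without (2.84-fold, adjusted p = 6.96e-06). Fads1, the delta-5 desaturase, rose 2.96-fold from 19.4 ± 3.89 to 57.8 ± 15.0, and Scd2, another stearoyl desaturase, 2.03-fold. Of 18 tested genes of fatty acid synthesis 6 were higher and 2 lower, with a median of 0.17. The synthase Fasn itself did not pass (0.06 log2, adjusted p = 0.839). Me1, which makes NADPH for the pathway and is also an NRF2 target, fell 3.05-fold from 32.1 ± 4.29 to 10.3 ± 4.55. Acsl4, which activates arachidonate, fell 2.11-fold.

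Some genes of sterol handling downstream of synthesis rose too. On the list of cholesterol efflux and LXR targets 4 of 10 were higher and 0 lower by edgeR, and 4 were higher in each leave-one-out fit, with 2 lower in the fit without serum replicate 2. Apoe, the secreted lipid carrier, read 2310, 1845 and 1628 CPM with serum and 2750, 2949 and 3680 without (1.62-fold, adjusted p = 0.00194). Abca1, the efflux pump, rose 1.92-fold, Soat1, which esterifies cholesterol for storage, 1.63-fold, and Lpcat3, which puts polyunsaturated chains into phospholipids, 1.59-fold. Scarb1, the receptor for high-density lipoprotein, read 20.5, 20.04 and 16.6 with serum and 39.5, 48.2 and 31.3 without (2.07-fold, adjusted p = 0.000482).

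Glucocorticoid-responsive genes had the lowest median of the lists with at least 8 tested members. Of 14 tested, 8 were lower and 1 higher, with a median log2 fold change of -1.36, and 7 to 10 were lower when 1 library was left out. Klf9, a zinc finger factor that the receptor induces directly, read 39.3, 40.2 and 42.2 CPM with serum and 15.6, 15.7 and 11.9 without (2.82-fold lower, adjusted p = 2.98e-06). Sgk1, the kinase named for serum and glucocorticoid, read 27.2, 8.63 and 19.8 with serum and 0.753, 4.01 and 2.80 without (6.90-fold lower, adjusted p = 3.82e-05). Fkbp5, a chaperone that feeds back on the receptor, read 17.6, 7.38 and 17.5 with serum and 2.45, 3.64 and 4.43 without (3.86-fold lower). Every serum-free library lay below every serum library for these 3 genes, and serum replicate 2 was the lowest of its group for Sgk1 and Fkbp5. Normal cells differed by gene. Their mean was below both vesicle groups for Klf9 (7.18 ± 0.08), between them for Sgk1 (6.60 ± 1.08) and above both for Fkbp5 (31.1 ± 4.76). The other 5 that fell were Cdkn1a, Per1, Tsc22d3, Mt1 and Ddit4, of which Per1 and Tsc22d3 were named after their values were seen. Ddit4 did not pass without serum replicate 1 (adjusted p = 0.097) or serum-free replicate 2 (0.067). Glul, glutamine synthetase, went the other way (1.74-fold higher, 121 ± 6.01 to 211 ± 70.1). The palindromic element of the receptor, searched on both strands, was in none of 14 matched upstream sequences of the list and in 0.364% of all promoters.

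Some targets of p53 and inhibitors of the cell cycle fell. Of 20 tested, 9 were lower, 11 did not pass and 0 were higher by edgeR (median -0.47), and 7 or 8 were lower when 1 library was left out, with 2 higher without serum replicate 2 and without serum-free replicate 1. Besides Cdkn1a, Mdm2, the ligase that degrades p53, read 132, 174 and 121 CPM with serum and 69.3, 76.9 and 74.2 without (1.94-fold lower, adjusted p = 4.95e-05). Aen, an apoptosis-enhancing nuclease, read 59.3, 76.4 and 51.2 with serum and 26.0, 31.2 and 31.6 without (2.11-fold lower). Zmat3, an RNA-binding p53 target, fell 2.20-fold from 10.6 ± 2.29 to 4.83 ± 0.913. In normal cells Mdm2 (148 ± 19.3) and Zmat3 (11.1 ± 2.25) were at the level of the serum vesicles. Cdkn1a is on both this list and the glucocorticoid list.

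Some genes that guard against oxidants and metals were lower. Of 23 tested NRF2 targets 9 fell, 1 rose and 13 did not pass (median -0.43), but the number lower was 5 without serum replicate 3, without serum-free replicate 3 and with the 6 vesicle libraries alone. Gclc, the catalytic subunit for glutathione synthesis, read 73.0, 67.4 and 69.2 CPM with serum and 33.0, 49.2 and 36.3 without (1.76-fold lower, adjusted p = 6.84e-05). The autophagy receptor Sqstm1 fell 1.63-fold, from 107 ± 11.1 to 65.8 ± 14.6. Txn1, thioredoxin, rose 1.66-fold from 127 ± 13.0 to 210.2 ± 33.2. The metallothionein Mt1, which buffers zinc and copper, read 4.11, 5.29 and 8.07 with serum and 0, 1.09 and 0.932 without (7.65-fold lower, adjusted p = 0.00289). Slc30a1, the zinc exporter that metal induces, fell 1.77-fold, and Hmox1, heme oxygenase, 1.89-fold.

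Iron genes moved in opposite directions. Tfrc, the transferrin receptor, read 266, 247 and 359.6 CPM with serum and 184, 117 and 108 without (2.14-fold lower, adjusted p = 4.33e-05), while Tf, transferrin itself, rose 1.52-fold from 30.9 ± 1.97 to 47.0 ± 6.46. The list of iron and metal genes had 6 of 18 lower and 2 higher. Of 11 tested heat shock genes, only Hsph1 and the mitochondrial chaperone Hspd1 (1.55-fold lower, but adjusted p = 0.0588 with the 6 vesicle libraries alone) passed, and 0 rose by edgeR or DESeq2. Without serum replicate 3, 4 were lower.

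**Figure D3:**
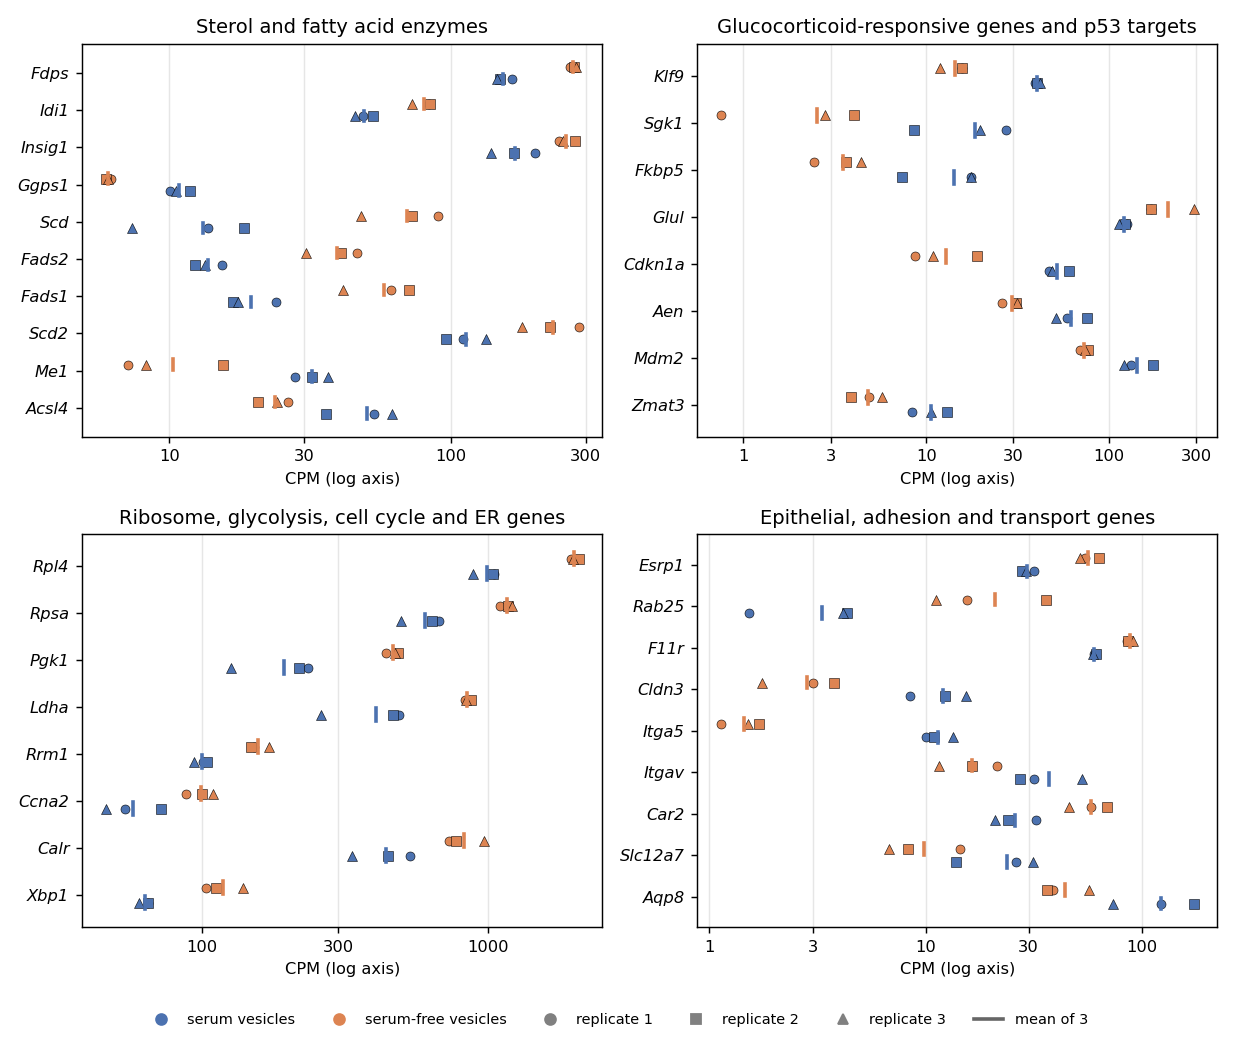
Level by library of members of the lists described in the text, in CPM on a log axis, for lipid enzymes, hormone and p53 responses, biosynthesis and division, and epithelial and transport genes. Each symbol is 1 library and each bar a mean of 3; Fdps, Idi1 and Rpl4 sit higher without serum in every library, and Klf9, Cdkn1a and Itga5 lower.

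Genes for making protein were higher without serum. The cytosolic ribosomal protein genes, a list added after the values were seen, had 63 of 72 tested members higher and 0 lower by edgeR, with a median log2 fold change of 0.80. Rpl4 and Rpsa, proteins of the large and small subunit, were named after their values were seen. Rpl4 read 1057, 1042 and 889 CPM with serum and 1960, 2085 and 1990 without (2.02-fold, adjusted p = 2.35e-06), and Rpsa 675, 641 and 499 with serum and 1110, 1180 and 1218 without (1.93-fold). Summed over the list, ribosomal protein genes read 22090, 21700 and 17780 CPM with serum and 35860, 38030 and 35180 without, against 28060 to 32460 in normal cells. The serum libraries therefore lay below normal cells and the serum-free libraries above them. These genes are short, with 67 of the 70 that could be matched in the shortest of 5 equal classes of gene length. The median log2 fold change ran from 0.17 in that class to -0.22 in the longest, and, over 5 classes of level, from -0.15 in the lowest to 0.18 in the highest. The part of gene length in these results was not tested, and near-identical copies elsewhere in the genome could have taken some of the reads.

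Several glycolytic enzymes and chaperones of the endoplasmic reticulum rose as well. Pgk1, phosphoglycerate kinase, read 235, 218 and 126 CPM with serum and 441, 485 and 475 without (2.42-fold, adjusted p = 3.75e-06). Ldha, lactate dehydrogenase, read 489, 466 and 260.5 with serum and 832, 876 and 841 without (2.09-fold). Serum replicate 3 was the lowest for both, and neither lost its call without it. Of 31 genes of hypoxia and glycolysis 9 were higher and 3 lower, among the latter the glucose importer Slc2a1 (1.95-fold lower, adjusted p = 0.0145, but 0.0884 without serum replicate 3, 0.0553 without serum-free replicate 2 and 0.0677 without serum-free replicate 3). The number of lower genes on that list was 1 in each of those 3 fits. Of 22 chaperone and unfolded protein genes 9 were higher and 1 lower, and 8 to 10 were higher in leave-one-out fits. Calr, the calcium-binding chaperone calreticulin, rose 1.88-fold from 439.8 ± 100.3 to 827 ± 126, and Xbp1, the factor that expands the secretory pathway, 1.87-fold from 63.2 ± 2.78 to 118 ± 18.9. The disulfide isomerases Pdia3 and Pdia4 rose 1.53-fold and 1.65-fold.

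Division genes were higher to a smaller degree. Of 26 mitotic genes 9 rose and 0 fell by edgeR (median 0.26), and of 29 genes of the start of the cycle and of DNA replication 9 rose and 2 fell (median 0.28). The 2 falls were lost without serum replicate 3, serum-free replicate 1 or serum-free replicate 2. With the 6 vesicle libraries alone, 6 mitotic genes and 7 genes of the start of the cycle and replication were higher. Adding the replicate number as a block to that fit left 1 and 2 higher. Ccna2, cyclin A2, read 53.6, 71.5 and 45.9 CPM with serum and 87.6, 99.9 and 109 without (1.73-fold, adjusted p = 0.000462). Rrm1 and Rrm2, the subunits of ribonucleotide reductase, rose 1.58-fold and 1.72-fold, the replicative helicase subunit Mcm5 1.63-fold, and the mitotic kinase Aurkb 1.52-fold. Ccnd1, cyclin D1, which serum growth factors and Wnt induce in many cells, did not pass (6.24 ± 2.81 and 5.81 ± 2.48, adjusted p = 0.888). Ccna2 (181 ± 5.87) and Rrm2 (373 ± 26.6) were higher still in normal cells.

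Amino acid genes gave a mixed picture. Of 26 genes of the ATF4 response 7 rose and 4 fell, but 1 was higher without serum-free replicate 2, 3 without serum replicate 3 and 0 with the 6 vesicle libraries alone. The number lower was 2 without serum replicate 1 or 3 and 1 without serum-free replicate 3. Asns, asparagine synthetase, rose 1.52-fold (adjusted p = 0.00649, but 0.0803 without serum-free replicate 2 and 0.0847 with the 6 vesicle libraries alone), and Atf4 itself 1.43-fold (adjusted p = 0.00846, but 0.0834 without serum-free replicate 2, 0.0587 without serum replicate 3 and 0.0803 with the 6 vesicle libraries alone). Among 21 transporters of amino acids and glucose 4 were higher (Slc3a2, Slc7a5, Slc1a5 and Slc16a3) and 5 lower, with a median of 0.34. The number higher was 1 without serum replicate 3 and 0 without serum-free replicate 2 or with the 6 vesicle libraries alone. Slc3a2, the shared heavy chain of several exchangers, rose 1.62-fold (adjusted p = 0.00975, but 0.0601 without serum replicate 3 and 0.0997 without serum-free replicate 2). Slc38a4, an importer of neutral amino acids, read 110.4, 149 and 137 CPM with serum and 56.3, 46.4 and 31.0 without (2.99-fold lower, adjusted p = 0.000597). Slc6a9, the glycine transporter, fell 2.76-fold from 32.4 ± 3.70 to 11.9 ± 2.85.

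Of 13 tested genes on the BMP list, 5 were higher without serum (the targets Id3, Id1 and Id2 and the ligand genes Bmp4 and Bmp2), 8 did not pass and 0 were lower by edgeR. In leave-one-out fits 4 to 6 were higher, and 1 was lower without serum replicate 3. Id1 read 15.4, 10.7 and 10.8 CPM with serum and 24.7, 40.7 and 19.9 without (2.30-fold, adjusted p = 0.00109), and Id2 22.1, 8.49 and 15.2 with serum and 24.9, 62.5 and 49.8 without (3.03-fold, adjusted p = 0.00121). The lowest serum-free library of Id2 lay only just above the highest serum library. The ligand gene Bmp4 rose 1.95-fold, from 24.3 ± 3.16 to 47.7 ± 18.3, but its adjusted p was 0.0567 without serum-free replicate 1. It was at 0.471 ± 0.48 CPM in normal cells.

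Wnt target genes did not move as a group. Of 13 tested 2 rose and 3 fell, with 0 higher without serum replicate 3 and 1 lower without serum replicate 1. Axin2, the feedback inhibitor that Wnt induces most widely, read 12.9, 9.74 and 28.4 CPM with serum and 9.04, 3.04 and 4.08 without (3.21-fold lower, adjusted p = 0.00859, but 0.0896 without serum replicate 3 and 0.0506 with the 6 vesicle libraries alone). Lgr5, a receptor and Wnt target, read 37.1, 47.9 and 42.2 with serum and 58.6, 45.2 and 34.4 without (adjusted p = 0.741). Both were at 0 in normal cells. Tnfrsf19 fell 2.39-fold (adjusted p = 0.00786) and Tcf7 1.88-fold (adjusted p = 0.0421). In leave-one-out fits 1 or 2 Wnt targets were lower. Cd44 and Apcdd1 rose 2.31-fold and 3.16-fold. Cd44 did not pass without serum replicate 3 (adjusted p = 0.0543) or serum-free replicate 2 (0.0664), and Apcdd1 did not without serum replicate 2 (0.0613), serum replicate 3 (0.0563) or serum-free replicate 2 (0.0744).

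Genes that serum and cell tension induce were lower in part. Of 19 contractile genes of the serum response 4 fell and 1 rose, and of 16 YAP and TAZ targets 4 fell and 1 rose. Ctgf, the connective tissue growth factor and a YAP target, read 76.8, 41.7 and 79.5 CPM with serum and 15.4, 29.4 and 25.4 without (2.77-fold lower, adjusted p = 0.000259). Tagln, an actin-binding protein of smooth muscle, fell from 5.48, 6.96 and 4.61 to 0.188, 0.364 and 1.16 (9.03-fold, adjusted p = 0.000369), and the actin crosslinker Flna fell 1.65-fold. Tagln2 went the other way (1.80-fold higher). The number of lower YAP targets was 1 without serum-free replicate 2, 2 without serum replicate 3 and 1 with the 6 vesicle libraries alone. Immediate early genes, which respond quickly to serum in many cells, gave 3 higher and 2 lower of 23. Both counts were near the shares over all tested genes, 12.9% higher and 11.5% lower. In leave-one-out fits 1 to 5 were higher and 0 to 5 lower. The factors Fos (adjusted p = 0.992) and Egr1 (adjusted p = 0.222) did not pass.

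LIF signalling genes did not move as a group. Their counts were not far from the shares over all tested genes, 12.9% higher and 11.5% lower. Of 22 tested, 3 rose (Lifr, Il6st and Socs2) and 4 fell (Jak1, Jak2, Pim3 and Tfcp2l1), with 2 lower without serum replicate 1 and 1 with the 6 vesicle libraries alone. Both receptor chains rose, Lifr 1.85-fold from 28.6 ± 2.18 to 52.8 ± 14.2 CPM (adjusted p = 0.000204) and Il6st, the shared chain gp130, 1.61-fold from 57.7 ± 11.2 to 93.3 ± 7.89 (adjusted p = 0.00292). The kinase Jak1 fell 1.97-fold, from 48.7, 42.7 and 52.6 to 35.6, 22.8 and 15.6 (adjusted p = 0.00108). Of the feedback inhibitors, Socs2 read 6.09, 3.62 and 4.84 with serum and 6.40, 14.1 and 9.67 without, a 2.10-fold rise (adjusted p = 0.0087). Socs3, which STAT3 induces, read 19.0, 19.2 and 25.4 with serum and 32.4, 20.2 and 16.8 without and did not pass (adjusted p = 0.705).

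Retinoid genes fell where they passed. Of 16 tested, 5 were lower and 0 higher by edgeR (median -0.60), with 2 lower without serum replicate 1, 3 without serum-free replicate 1 and 2 with the 6 vesicle libraries alone. A single one was higher without serum replicate 2 and without serum-free replicate 3. The retinoid receptor partner Rxra read 7.45, 5.15 and 6.22 CPM with serum and 1.51, 2.06 and 1.98 without (3.32-fold lower, adjusted p = 0.000524). Stra6, which imports retinol from its carrier in serum, fell from 1.52, 6.12 and 4.84 to 0.377, 0.121 and 1.05 (7.47-fold, adjusted p = 0.00153). Tgm2, a transglutaminase that retinoic acid induces, had 31 counts with serum and 3 without, a ratio of 12.6 (95% interval 3.94 to 64.6, counting error only), and its adjusted p was 0.101 without serum replicate 1.

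Insulin and growth factor genes moved in both directions. Irs1 and Irs2, the adaptors of the insulin receptor, fell 3.04-fold and 3.13-fold. Irs2 read 10.2, 8.49 and 14.3 CPM with serum and 4.33, 4.01 and 2.21 without (adjusted p = 0.00016). Txnip, a glucose-induced brake on glucose uptake, read 123, 86.6 and 112 with serum and 307, 384 and 348 without (3.24-fold higher, adjusted p = 0.00342), against 7.34 ± 1.89 in normal cells. Foxo1, the factor that insulin holds out of the nucleus, rose 1.78-fold. Igf1 and the binding protein gene Igfbp4 were the 2 of 8 tested IGF genes that rose (4 rose with no low-count filter), and Igfbp4 was not called without serum-free replicate 3 (adjusted p = 0.148) or with the 6 vesicle libraries alone (0.105). Nodal, the TGF-beta family ligand of the early embryo, read 2.28, 3.34 and 0.692 with serum and 0.188, 0.121 and 0.699 without (5.97-fold lower), with overlapping libraries. Fgfr2, a receptor for fibroblast growth factors, fell 4-fold from 4.31 ± 1.14 to 1.04 ± 0.62. Interferon-responsive genes had 4 of 15 lower and 0 higher by edgeR, led by the factor Irf1 (2.38-fold lower, 19.8 ± 2.73 to 8.26 ± 2.46). The cytokine gene Il33 rose 2.92-fold, from 6.46 ± 2.38 to 19.5 ± 3.61.

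Junction and epithelial genes were partly higher. Of 32 tested 8 rose and 3 fell, with a median of 0.04. With the 6 vesicle libraries alone 5 were higher, and 1 was lower without serum replicate 3 or serum-free replicate 3. Esrp1, the splicing factor that marks epithelia, read 31.8, 28.0 and 29.0 CPM with serum and 55.0, 63.5 and 51.7 without (1.92-fold, adjusted p = 7.35e-05). Rab25, a GTPase of epithelial recycling, read 1.52, 4.31 and 4.15 with serum and 15.6, 36.1 and 11.2 without (6.37-fold, adjusted p = 0.000808). F11r, the junctional adhesion molecule A, read 59.9, 61.5 and 59.7 with serum and 85.7, 86.9 and 91.5 without, a small rise (1.46-fold) with little spread. Claudin gene Cldn3 fell 4.23-fold, from 12.1 ± 3.47 to 2.84 ± 1.02. Cdh1, E-cadherin, and the keratins Krt8 and Krt18 did not pass (adjusted p = 0.923, 0.195 and 0.928), although all 3 were well above normal cells in both groups. Zeb1, a repressor of epithelial genes, had 37 counts with serum and 2 without, a ratio of 22.6 (95% interval 5.83 to 194). Genes of mesenchymal transition went both ways, with 2 of 8 tested higher, 2 lower and a median log2 fold change of 0.26. The mesenchymal filament gene Vim, given above, rose 4.61-fold.

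Matrix genes and their receptors changed in both directions. Among 18 basement membrane genes 6 fell and 2 rose (median -0.69), the rises being Sparc and the collagen IV chain Col4a2, the latter not called without serum replicate 3 (adjusted p = 0.11), without serum-free replicate 3 (0.236) or with the 6 vesicle libraries alone (0.108). Lama5, the laminin chain of mature epithelia, read 52.6, 38.3 and 76.1 CPM with serum and 19.96, 27.4 and 11.8 without (2.80-fold lower, adjusted p = 0.000778). Fras1, an anchor of embryonic epithelia, read 14.5, 3.48 and 30.0 with serum and 2.64, 2.19 and 1.05 without (8.17-fold lower), with a wide spread among serum libraries. Col18a1 and Agrn fell 4.89-fold and 2.05-fold, and the call for Agrn was lost without serum replicate 3 (adjusted p = 0.0639).

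Of 11 integrins tested, 4 were lower (Itga5, Itgav, Itga7 and Itga3) and 3 higher (Itgb6, Itga2 and Itgb1). The number lower was 2 without serum replicate 3 or serum-free replicate 1, and the number higher was 1 without serum replicate 3 or serum-free replicate 3. The fibronectin receptor subunit Itga5 had the smallest adjusted p of the integrins tested. It read 10.0, 11 and 13.4 CPM with serum and 1.13, 1.70 and 1.51 without (7.58-fold lower, -2.92 ± 0.26, adjusted p = 9.73e-08). Itgav, the vitronectin receptor subunit, fell 2.28-fold from 37.5 ± 13.8 to 16.5 ± 4.97, and Itgb6, an epithelial subunit, rose 1.84-fold from 9.14 ± 0.673 to 16.8 ± 0.834. In the interstitial matrix 3 of 9 tested genes were higher (Vcan, Loxl2 and Thbs1) and 2 lower (Col3a1 and Col5a1), with a median of -1.16 and 0 to 3 lower in leave-one-out fits. Vcan, the proteoglycan versican, read 3.96, 3.62 and 2.54 with serum and 12.8, 10.7 and 23.1 without (4.53-fold higher, adjusted p = 5.43e-05), and Loxl2, which crosslinks collagen, rose 2.32-fold. The protease Adamts9, which cleaves versican, rose 2.35-fold from 40.7 ± 5.32 to 96.0 ± 23.3.

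Genes of ion and water transport were lower where they changed most. Of 17 tested 4 fell and 1 rose, with 4 lower in each leave-one-out fit. Aqp8, a water channel, read 122, 175 and 73.5 CPM with serum and 38.8, 36.7 and 57.0 without (2.80-fold lower, adjusted p = 0.00863), with both groups above the 11.3 ± 2.63 of normal cells. Car4, a membrane-bound carbonic anhydrase, had 120 counts with serum and 3 without, a ratio of 48.9 (95% interval 16.3 to 240.5), whereas the cytosolic Car2 rose from 32.6, 24.1 and 21.0 to 58.6, 69.4 and 46.2 (2.23-fold, adjusted p = 0.000314). Scnn1a, a subunit of the epithelial sodium channel, fell from 3.04, 3.06 and 5.07 to 0.565, 0.364 and 0.582 (7.14-fold), and the potassium chloride cotransporter Slc12a7 fell 2.45-fold.

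Levels also differed between the groups by chromosome. Chromosomes were taken by symbol from RefSeq (GRCr8), which placed 10234 of the 11503 tested genes (89%), and no position was used in this step. The median log2 ratio to normal cells was computed for each library over the 6842 of these genes above the same level. On chromosome 20 it was -0.08, -0.12 and -0.09 with serum and -0.37, -0.31 and -0.35 without, and 23.4% of its tested genes were lower against 11.5% over all genes. On chromosome 11 it was -0.08, 0.01 and -0.05 with serum and -0.35, -0.25 and -0.23 without, with 24.3% lower. On chromosome 2 it was -0.06, 0.04 and -0.12 with serum and 0.18, 0.14 and 0.17 without, with 28.0% higher against 12.9%. Chromosome 13 was raised in both groups, at 0.31, 0.16 and 0.37 with serum and 0.47, 0.40 and 0.42 without. Of 21 chromosomes 6 lay wholly above in serum-free libraries, 4 wholly below and 11 overlapped.

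**Figure D4:**
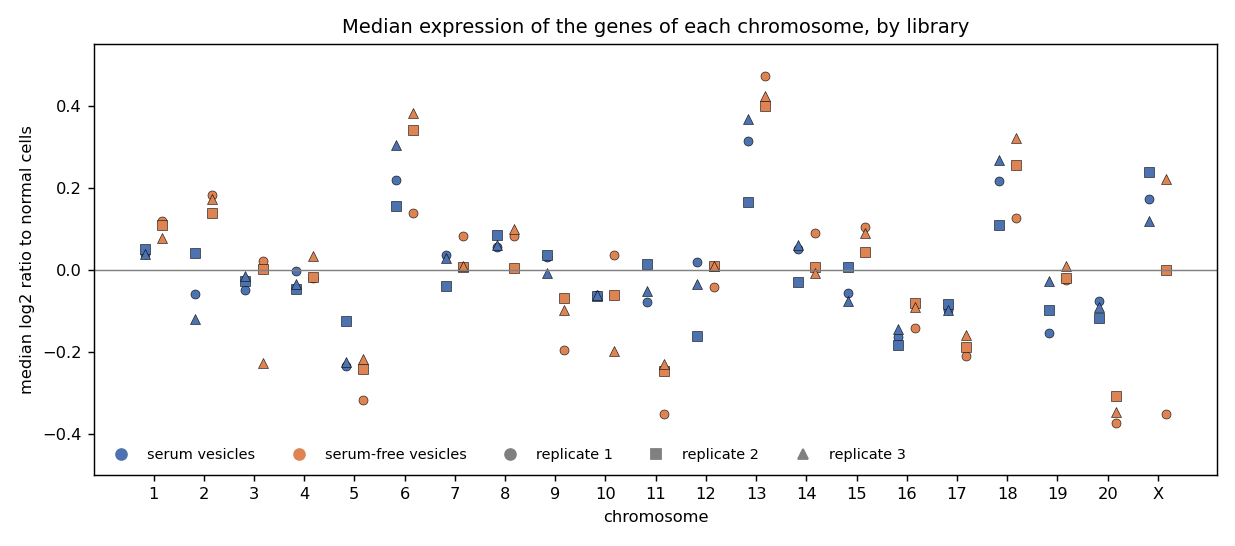
Median log2 ratio to the mean of normal cells over the genes of each chromosome, 1 symbol per vesicle library, with serum in blue, serum-free in orange and the shape giving the replicate. Chromosomes 11 and 20 are lower and chromosome 2 higher in all 3 serum-free libraries than in any serum library, and the X chromosome differs among the serum-free replicates, from -0.35 to 0.22.

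The X chromosome separated the serum-free replicates from each other, at -0.35, 0 and 0.22, while the serum libraries read 0.17, 0.24 and 0.12. DNA copy number was not measured, and the part of these shifts in the results above was not tested. Cdkn1a and Fkbp5 are on chromosome 20, and Fdps, Hmgcs1, Txnip and Ccna2 are on chromosome 2. After the median of each gene's own chromosome was subtracted, a step added after the values were seen, the median log2 fold change was -1.38 for glucocorticoid-responsive genes, -0.44 for p53 targets, 0.35 for cholesterol synthesis, 0.78 for ribosomal protein genes and 0.46 for BMP targets. The same step took the median from 0.11 to -0.07 for fluid transport, from -0.41 to -0.14 for insulin and FOXO genes, from -0.27 to -0.05 for interferon genes and from -0.27 to -0.12 for LIF genes.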

How the data were processed

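RNA from 18 libraries of 6 groups of 3 was depleted of ribosomal RNA, made into directional libraries and sequenced in pairs, per the labels' protocols. Reads were trimmed with Trimmomatic 0.38 and aligned with STAR 2.6.1 to rn6, per the submitters' processing notes. The deposited files hold raw counts per gene for both strand settings. The column with nearly all reads was used, and the other held 1.70 to 2.55% of them in vesicles.

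Counts were fitted in R 4.3.3 with edgeR 4.0.16 (filterByExpr with a minimum count of 10, TMM scaling, 6 groups in 1 quasi-likelihood model), and genes were called at a Benjamini-Hochberg adjusted p below 0.05. A prior count of 2 entered log2 CPM. The common biological coefficient of variation was 16.1%. Intervals and floors cover counting error only, and 3 counts were used as the floor of a 0. On simulated counts with 11345 genes, the fit called 38% of 1.5-fold, 90% of 2-fold and 100% of 4-fold changes, and 6 of 11145 unchanged genes. These shares describe the simulated counts only. How far they hold for the measured libraries, and for genes at low levels, was not tested. DESeq2 1.42.0 was an alternative.

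Named genes were the 12 largest changes in each direction, up to 4 members of each list in its larger direction and 2 in the other by smallest adjusted p, a fixed set of 20, and members given as not passing. The libraries, lists and tests were chosen with earlier results of these data known. The ribosomal protein list and the chromosome step were added after seeing the data. RefSeq tables of GRCr8 gave chromosomes, lengths and upstream sequences by symbol. No pair of libraries held identical counts. A few members of the lists and of the fixed set are counted but not reported here by name.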

Additional observations from a re-analysis of the deposited data

How the results depend on the processing

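The 2806 calls (1482 higher, 1324 lower) kept their number to within 1.5 times without the low-count filter, with DESeq2, upper-quartile scaling, passage as a covariate, unstranded counts, without the 2 most abundant genes and with counts thinned to equal totals outside those 2. With the 6 vesicle libraries alone there were 1223 (605 higher, 618 lower), of which 1206 were among the 2806; that fit has 4 residual degrees of freedom in place of 12. Leaving out 1 library gave 1725 to 3004 calls, 943 to 1589 higher and 782 to 1415 lower, the fewest without serum replicate 3. Same-numbered libraries did not deviate together (correlations across genes -0.107, -0.0831 and -0.126), so the numbers were not taken as pairs, and a fit with the replicate number as a block gave 840 calls (411 higher, 429 lower). No call of the main test had the opposite sign in any alternative. The naming rule gave 216 genes from the lists, the fixed set and the largest changes, of which 203 were called. Of these 203, 109 kept their call in every one of the 15 alternatives that tested them. An alternative that did not test a gene was not counted against it. Of the 13 genes of the fixed set that did not pass, 5 changed sign when 1 library was left out, their log2 fold changes ranging from -0.082 to 0.18 (Cdh1), -0.071 to 0.15 (Krt18), -0.43 to 0.25 (Ccnd1), -0.18 to 0.31 (Socs3) and -0.087 to 0.29 (Lgr5). Cdh1 was also below 0 with upper-quartile scaling (-0.012) and with the 6 libraries alone (-0.00085), as was Krt18 (-0.016 and -0.0064), and Ccnd1 was above 0 with thinned counts (0.085). The cause was not tested. In the vesicle libraries 1919117 to 4501024 counts lay outside the 2 most abundant genes, which limits the precision of genes with few counts.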
